A study of Homo sapiens with 6 samples.

Results

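The mitochondrial ribosomal protein genes were taken as all genes whose symbol is MRPL or MRPS followed by a number and at most 1 letter, with pseudogenes left out, and only from probe sets that carry that symbol alone. On these arrays 75 of the 19775 genes tested met that rule, 48 with an MRPL symbol and 27 with an MRPS symbol, out of 77 such protein-coding genes in the RefSeq gene table; the other two, MRPL53 and MRPS24, had only probe sets shared with a further symbol and were not analysed here. RNA came from MM1S, an established human myeloma line (a tumour of antibody-secreting plasma cells), on 3 arrays of cells in normoxia and 3 arrays of cells in hypoxia, to find how transcript levels differ between the conditions. No other treatment or genetic change is named in the labels, and the label that names 24 h of hypoxic exposure stands on the normoxia arrays as well, so the groups rest on the condition label. No label used here gives the oxygen concentration. Nothing in the labels says whether the replicates come from cultures grown apart, so the p-values rest on a spread between arrays that may be technical.

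The mitochondrial ribosome sits in the mitochondrial matrix and translates the few messenger RNAs of the mitochondrial genome, all of which encode core subunits of the respiratory chain and of ATP synthase. Its RNAs come from mitochondrial DNA, but every one of its proteins is encoded in the nucleus, made in the cytosol and imported. The small subunit binds the messenger and holds the decoding centre; the large subunit forms the peptide bond and opens into an exit tunnel at the inner membrane. Many of the proteins have bacterial counterparts, and others exist only in mitochondria.

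Promoters of 67 of the 75 genes are held in the RefSeq promoter table (GRCh38.p14), each from 250 bases before to 50 bases after the start of the gene. The sequences of the 3 genes with the largest fall, of MRPS5, which rose, and of MRPS11, whose upstream region is shared with MRPL46, are shown because they are the stretches that the values below refer back to; MRPL10, the gene with the largest rise, has no entry. Capitals mark matches on either strand to any of 7 short motifs, which are spelled out with their counts after the sequences.
MRPS26, chr20:3045802-3046101, + strand: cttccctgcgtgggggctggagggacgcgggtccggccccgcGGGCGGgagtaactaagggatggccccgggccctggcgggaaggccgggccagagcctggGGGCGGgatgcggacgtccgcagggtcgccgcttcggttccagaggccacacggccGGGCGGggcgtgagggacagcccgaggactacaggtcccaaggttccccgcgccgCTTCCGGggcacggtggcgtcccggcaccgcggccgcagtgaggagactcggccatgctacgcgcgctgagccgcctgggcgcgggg
MRPS17, chr7:55951627-55951926, + strand: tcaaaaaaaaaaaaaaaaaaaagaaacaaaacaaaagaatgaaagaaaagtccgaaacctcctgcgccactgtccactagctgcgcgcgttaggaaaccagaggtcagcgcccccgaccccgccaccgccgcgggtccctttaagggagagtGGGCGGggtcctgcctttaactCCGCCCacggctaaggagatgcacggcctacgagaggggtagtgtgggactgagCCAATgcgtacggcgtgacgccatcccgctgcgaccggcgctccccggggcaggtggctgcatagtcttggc
MRPL4, chr19:10251701-10252000, + strand: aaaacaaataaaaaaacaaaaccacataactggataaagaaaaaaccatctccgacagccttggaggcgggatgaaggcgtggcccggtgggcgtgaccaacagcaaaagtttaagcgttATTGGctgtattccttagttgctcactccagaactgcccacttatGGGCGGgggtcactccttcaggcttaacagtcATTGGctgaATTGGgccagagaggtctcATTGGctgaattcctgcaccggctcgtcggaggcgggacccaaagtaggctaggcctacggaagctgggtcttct
MRPS5, chr2:95121759-95122058, - strand: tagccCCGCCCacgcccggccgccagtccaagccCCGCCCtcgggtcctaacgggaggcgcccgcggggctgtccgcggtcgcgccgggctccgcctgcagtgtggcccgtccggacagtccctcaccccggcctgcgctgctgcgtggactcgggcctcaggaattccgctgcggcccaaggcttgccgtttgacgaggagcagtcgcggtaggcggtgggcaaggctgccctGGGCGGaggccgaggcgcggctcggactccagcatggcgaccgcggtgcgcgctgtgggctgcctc
MRPS11, chr15:88467458-88467757, + strand: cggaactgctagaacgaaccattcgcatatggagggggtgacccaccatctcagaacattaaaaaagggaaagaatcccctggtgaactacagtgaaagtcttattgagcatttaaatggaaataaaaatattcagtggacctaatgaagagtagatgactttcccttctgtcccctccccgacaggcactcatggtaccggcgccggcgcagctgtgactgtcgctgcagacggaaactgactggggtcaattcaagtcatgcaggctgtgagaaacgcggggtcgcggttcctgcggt

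The ETS core, CCGGAAG, was present in 29 of the 67 promoters (43.3%), against 10.3% of all 35116 promoters of the table and 12.9% of the 21490 promoters of genes tested on the arrays; both shares follow in this order for the other motifs. Among the shown sequences it is found in MRPS26 alone, 37 bases before the start and on the opposite strand. Of the 50 genes that fell in hypoxia and have a promoter entry, 25 held this core, and of the 17 other members 4. The YY1 core, ATGGCGG, was found in 23 of the 67 genes (34.3%, against 5.55% and 7.05%), in 15 of 50 that fell and 8 of 17 others. In 18 promoter entries of the members the letters lay on the strand of the gene within the 50 bases after the start. There 2.07% of all promoters had them. The core of the hypoxia response element, ACGTG, was found in 24 genes (35.8%, against 21.4% and 23.3%), in 16 of 50 that fell and 8 of 17 others. None of the shown sequences holds it. The E-box, CACGTG, contains that core, and 9 genes had it (13.4%, against 7.26% and 8.36%), 6 of 50 that fell and 3 of 17 others. The NRF1 core, GCATGCG, was found in 7 genes (10.4%, against 3.91% and 4.70%), in 4 of 50 that fell and 3 of 17 others. The GC box, GGGCGG, was found in 40 genes (59.7%, against 45.0% and 56.7%), in 29 of 50 that fell and 11 of 17 others. In the MRPS26 sequence lie 3 of its matches. The CCAAT box, by name its 5 letters, was found in 23 genes (34.3%, against 34.6% and 34.5%), in 14 of 50 that fell and 9 of 17 others. MRPS11 has no match to any of the 7 motifs in this window. Of the 7 motifs only the ETS core had a larger share among the genes that fell than among the other members, and this was not tested. These are matches of letters in one window and were not tested as sites.

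Levels below are linear intensities of the brightest probe set of a gene as mean ± SD (n = 3 arrays per group), and changes are hypoxia minus normoxia in log2(intensity + 16), which understates the change of dim genes; a gene is said to rise or fall where limma's adjusted p over all genes is at most 0.05. All 16 genes of a list of HIF targets rose, with a median change of 1.90, where 16.9% of all genes rose. The list was meant as a check of the labels, but it was chosen with earlier results of these data known. It is therefore a weak check. The 8 plasma cell markers had summed intensities of 42834 to 44440.3 in normoxia and 41274 to 43026 in hypoxia. Of these, SDC1, CD38, MZB1 and SLAMF7 fell, XBP1 rose and TNFRSF17, PRDM1 and IRF4 did not pass. Over all genes 20.6% fell, and at a mean log2 value of 12 and over, where the median of these markers lies, 30.4% fell. For 11 markers of other blood, vessel, stromal or epithelial cells the sums were 2545 to 2762 in normoxia and 1941 to 2097 in hypoxia. Most of this was HBB, a globin gene, which fell from 1751 ± 128 to 1125 ± 27.7, while CD3D and EPCAM rose and the other 8 did not pass. The median of these 11 lies at a mean log2 value under 9, where 12.7% of all genes fell. The monocyte marker CD14 was at 6.34 ± 1.78 and 6.85 ± 4.56. The array medians lay between 54.95 and 60.1. The part of these markers in the results below was not tested. In cells in bulk, fewer cells with a transcript and less of it per cell cannot be told apart.

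Most of the mitochondrial ribosomal protein genes were lower in hypoxia. Of the 75, 55 fell (73.3%), 2 rose and 18 did not pass, where 20.6% of all genes tested fell and 16.9% rose. Among the 7890 genes within the range of brightness of these 75, 37.4% fell and 28.6% rose. The median change was -0.42, with a middle range from -0.80 to -0.20, against -0.00016 over all genes. In 60 of the 75 genes all normoxia arrays lay above all hypoxia arrays, a pattern shown by 25.8% of all genes; in 4 the hypoxia arrays lay above, which 22.1% of all genes showed, and in 11 the groups overlapped. The falls were mostly partial: over the 55 genes the mean intensity was lower by 13.01% to 63.96%, with a median of 34.5%. At least halving on the log2 scale was seen in 9 of the 75 genes, while 4.75% of all genes and 8.44% of those in the same range of brightness fell as far. Standard errors of the changes were between 0.050 and 0.17. Leaving out 1 array at a time gave 44 falls without hypoxia replicate 2 and up to 54 otherwise, and 44 of the 55 genes kept the call without each array in turn. The 11 that lost it without at least 1 array were MRPL19, MRPL28, MRPL33, MRPL41, MRPL51, MRPL57, MRPS2, MRPS18B, MRPS22, MRPS31 and MRPS33.

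**Figure D1:**
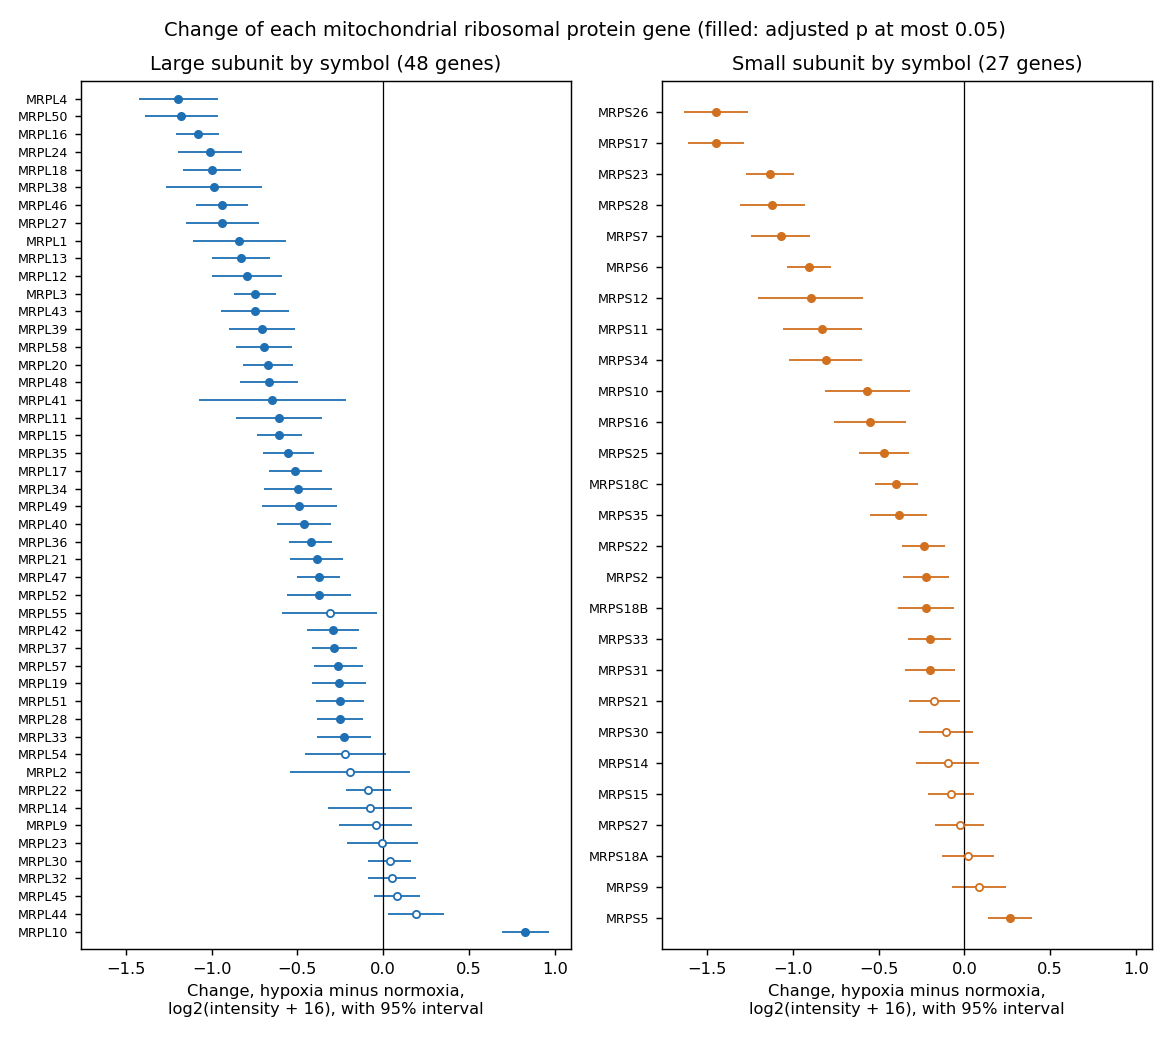
Change of each of the 75 genes (points) with its 95% confidence interval (lines) in log2(intensity + 16), hypoxia minus normoxia, for 48 MRPL genes on the left and 27 MRPS genes on the right; filled points passed limma's adjusted p of 0.05. The changes run from -1.45 for MRPS26 to 0.83 for MRPL10, and most points lie left of 0.

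The 6 largest falls were shared between the subunits. MRPS26, a small subunit protein found only in mitochondria, was at 1514, 1414 and 1524 on the normoxia arrays and at 494, 570.4 and 540.1 on the hypoxia arrays. MRPS17, the counterpart of bacterial S17, was at 2466, 2506 and 2673 in normoxia and at 876, 963 and 939 in hypoxia. In both the highest hypoxia array was under the lowest normoxia array, and their changes were the same to the second decimal, -1.45 for MRPS26 (limma adjusted p = 6.69e-05) and -1.45 for MRPS17 (limma adjusted p = 5.17e-05). MRPL4, the counterpart of bacterial L4, was at 961, 858 and 1046 in normoxia and at 386, 436 and 400.0 in hypoxia, a change of -1.19. MRPL50, a large subunit protein found only in mitochondria, was at 2950.5, 2839 and 2759 in normoxia and at 1383, 1244 and 1137 in hypoxia, a change of -1.18. Neither of these showed any overlap of the groups. MRPS23, a mitochondria-specific small subunit protein, was at 3374, 3449 and 3596 in normoxia and at 1538, 1608 and 1581 in hypoxia (-1.13). MRPS28 was at 2187, 1892 and 1996 in normoxia and at 963, 927 and 879 in hypoxia (-1.12). The groups were again fully apart in both genes, and the adjusted p of the 6 genes was at most 0.000238 in limma.

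**Figure D2:**
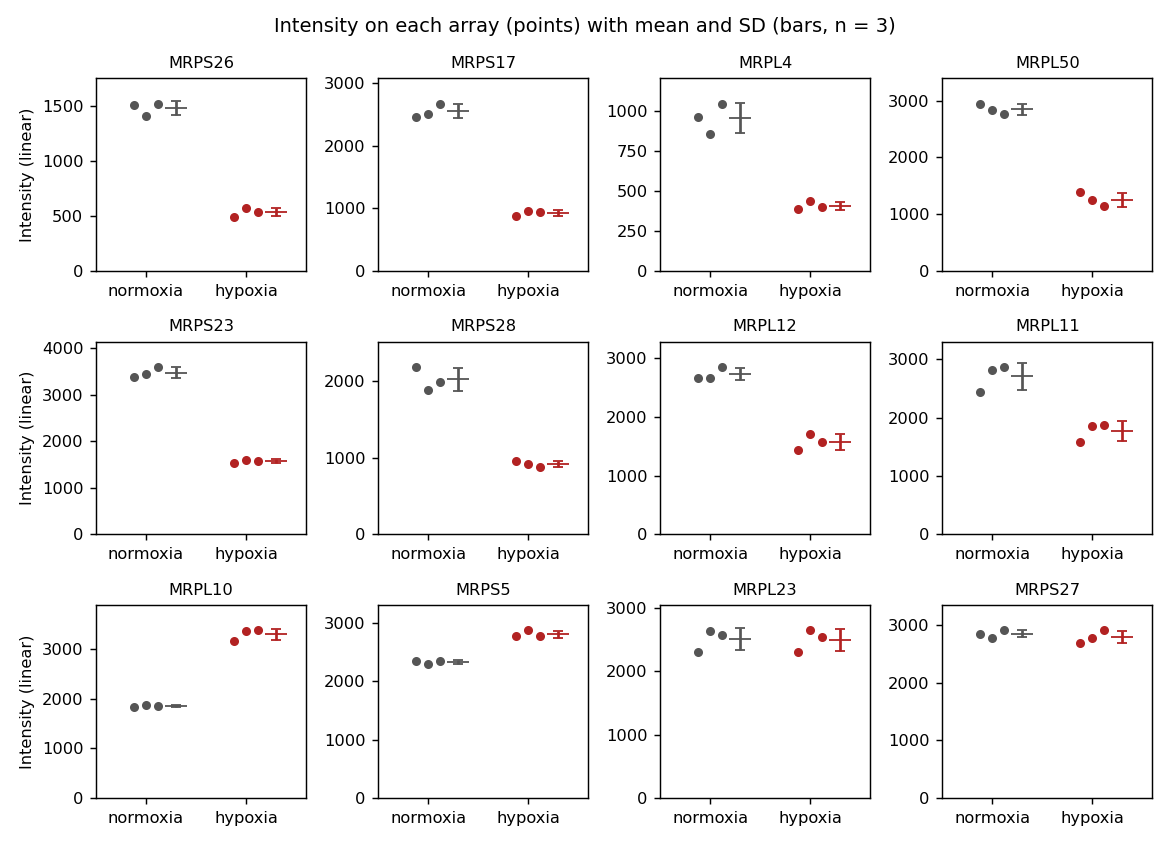
Linear intensity on each array (points, grey for normoxia and red for hypoxia) with mean and SD (bars, n = 3) for the 6 genes with the largest fall, the 3 genes of the stalk (MRPL12, MRPL11 and MRPL10), MRPS5, which rose, and MRPL23 and MRPS27, which hardly moved. In the 6 largest falls every hypoxia point lies under every normoxia point, in MRPL10 and MRPS5 above, and in MRPL23 and MRPS27 the points overlap.

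In the large subunit, genes with a bacterial counterpart and mitochondria-specific genes fell in shares of 72.4% and 71.4%. Of the 29 with a bacterial counterpart, 21 fell, 1 rose and 7 did not pass, with a median change of -0.50. After MRPL4, the largest falls were those of MRPL16, a protein at the tRNA sites, from 2879 ± 48.8 to 1352 ± 20.7 (-1.08), of MRPL24 from 3617 ± 218 to 1787 ± 106 (-1.01) and of MRPL18 from 2791 ± 118 to 1390.2 ± 73.4 (-0.997). MRPL27, whose bacterial relative reaches towards the peptidyl transferase centre, went from 2736 ± 159 to 1423 ± 118 (-0.94). MRPL3 was among the most evenly measured genes: its hypoxia arrays were at 4327, 4327 and 4330.3, its normoxia arrays at 7352, 7226 and 7269 (-0.75). The others that fell were MRPL1, MRPL13, MRPL12, MRPL20, MRPL11, MRPL15, MRPL35, MRPL17, MRPL34, MRPL36, MRPL21, MRPL47, MRPL19, MRPL28 and MRPL33, with changes from -0.84 to -0.23. MRPL2, MRPL22, MRPL14, MRPL9, MRPL23, MRPL30 and MRPL32 did not pass, with changes from -0.20 to 0.052. MRPL2 was one of the dim genes, at 336 ± 62.7 in normoxia and 288 ± 22.5 in hypoxia.

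Of the 21 mitochondria-specific genes of the large subunit, 15 fell and 6 did not pass, with a median change of -0.37. Mitochondria-specific stands here for a protein with no bacterial counterpart at its place in the ribosome. This group holds MRPS30 and MRPS18A, which carry small subunit symbols although their proteins sit in the large subunit. MRPL38 fell from 331 ± 49.8 to 158 ± 9.19 (-0.98) and MRPL46 from 1829 ± 60.3 to 945 ± 40.1 (-0.94). MRPL58, a peptidyl-tRNA hydrolase built into the ribosome that frees stalled chains, fell from 1689.6 ± 60.9 to 1039 ± 56.8 (-0.69). The remaining falls, from -0.75 to -0.25, were those of MRPL43, MRPL39, MRPL48, MRPL41, MRPL49, MRPL40, MRPL52, MRPL42, MRPL37, MRPL57 and MRPL51, beside MRPL50 given above. MRPL55, MRPL54, MRPS30, MRPS18A, MRPL45 and MRPL44 did not pass, at -0.31, -0.22, -0.11, 0.021, 0.080 and 0.19.

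Among the 15 small subunit genes with a bacterial counterpart, 10 fell, 1 rose and 4 did not pass, with a median change of -0.55. Below MRPS17 and MRPS28 came MRPS7, from the head of the subunit, which went from 1326 ± 43.4 to 623 ± 41.0 (-1.07), and MRPS6, from 1913 ± 8.99 to 1013 ± 23.5 (-0.91). MRPS12, a protein of the decoding centre, went from 4032 ± 413 to 2163 ± 265 (-0.90), a wider spread than most, with its 3 hypoxia arrays at 1861, 2357 and 2271. MRPS11 (-0.83), MRPS10 (-0.56), MRPS16 (-0.55), MRPS18C (-0.40) and MRPS2 (-0.22) fell as well. Of the other probe sets of MRPS10, 1 fell (-0.52). Another, nearly as bright as the chosen one, was at 985 ± 25.5 in normoxia and 1077 ± 32.1 in hypoxia (0.13) and did not pass. The other probe set of MRPS16 fell further (-1.69). MRPS21, MRPS14, MRPS15 and MRPS9 did not pass, at -0.17, -0.097, -0.078 and 0.085. Of the 10 mitochondria-specific small subunit genes, 9 fell and MRPS27 did not pass. Their median change was -0.31. Beside MRPS26 and MRPS23 the falls were those of MRPS34 (-0.81), MRPS25 (-0.47), MRPS35 (-0.38), MRPS22 (-0.24), MRPS18B (-0.22), MRPS33 (-0.20) and MRPS31 (-0.20).

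The 2 genes that rose did so by different amounts. MRPL10, which forms the base of the flexible stalk that recruits translation factors, was at 1826, 1872 and 1858 in normoxia and at 3169, 3359 and 3378 in hypoxia. The lowest hypoxia array lay above the highest normoxia array, and the change was 0.83 (95% confidence interval 0.69 to 0.97, limma adjusted p = 0.000143). The array carries 1 probe set of MRPL10, so no other could be compared. The other two proteins of this list, fixed as the stalk and its base, went the opposite way: MRPL12, the stalk protein itself, was at 2674, 2674 and 2854 in normoxia and at 1433, 1713 and 1584 in hypoxia (-0.79, limma adjusted p = 0.000692). MRPL11 was at 2445, 2815 and 2866 in normoxia and at 1581, 1862 and 1877 in hypoxia (-0.61, limma adjusted p = 0.00488). Neither MRPL12 nor MRPL11 overlapped between the groups. MRPS5, the counterpart of bacterial S5 near the messenger entry, was at 2353, 2304 and 2354 in normoxia and at 2773, 2876 and 2785 in hypoxia (0.26, limma adjusted p = 0.00916). Its groups did not overlap either, and its 3 other probe sets were at 0.31, 0.73 and 0.24 without passing.

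Of 5 genes listed for the polypeptide exit, where new chains leave towards the inner membrane, 1 fell, MRPL24. Over all genes 20.6% fell, and at a mean log2 value of 11 to 12, where the median of this list lies, 35%. The list was drawn up with earlier results known and need not hold every protein of the exit. It gives no result for the region as a whole. MRPL22 was at 2607 ± 67.4 in normoxia and 2452 ± 36.0 in hypoxia (-0.088). MRPL45, which holds the ribosome at the membrane, was at 1710.2 ± 52.0 and 1808 ± 19.3 (0.080). MRPL44 was at 784 ± 33.6 and 898 ± 42.6, and its change of 0.19 did not pass (limma adjusted p = 0.0686), although all hypoxia arrays lay above the normoxia arrays. It passed upward under 4 of 16 alternative settings. MRPL23 showed the smallest change of all 75 genes. It was at 2313, 2639.9 and 2583 in normoxia and at 2312, 2648 and 2540.2 in hypoxia (-0.0067, 95% confidence interval -0.21 to 0.20), with full overlap.

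The next smallest changes were those of MRPS18A and MRPS27. MRPS27, a pentatricopeptide repeat protein, was at 2849, 2779 and 2902 in normoxia and at 2687, 2779 and 2901 in hypoxia (-0.028, interval -0.17 to 0.11), and the groups overlapped. MRPS18A is one of 3 paralogues related to bacterial S18, of which MRPS18C alone takes the place of S18; MRPS18A and MRPS18B sit elsewhere and are counted as mitochondria-specific by place. MRPS18A, of the large subunit, was at 998, 1002 and 1039 in normoxia and at 988, 1089.5 and 1009 in hypoxia (0.021, interval -0.13 to 0.17), and its other probe set was at 0.11 without passing. MRPS18B was at 3778, 3458 and 3759 in normoxia and at 2996, 3204 and 3219 in hypoxia (-0.22). MRPS18C was at 4152, 4059.9 and 4058 in normoxia and at 3129.8, 3087 and 3089.8 in hypoxia (-0.40, limma adjusted p = 0.00154). All arrays of MRPS18B and MRPS18C were separated by group, and those of MRPS18A overlapped. The call of MRPS18B (limma adjusted p = 0.0436) was lost without normoxia replicate 0 or 2 or any of the hypoxia arrays, at 0.0856 to 0.130. With the mean of its probe sets MRPS18C was at -0.16 and did not pass (limma adjusted p = 0.127), its 2 other probe sets being dim. Differences between the paralogues were not tested.

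The brightest probe sets of each subunit belonged to MRPL51 and MRPS15. That of MRPL51 is its only probe set and has a name ending in _x_at. MRPL51 was at 7581, 7114 and 7344 in normoxia and at 6352, 6072 and 6079 in hypoxia, a fall of 0.25 on the log2 scale with no overlap. The call was lost without normoxia replicate 2 or hypoxia replicate 1 or 2, at limma adjusted p-values of 0.0551 to 0.0602. MRPS15 was at 6948, 6538 and 6699 in normoxia and at 6415, 6398 and 6300.4 in hypoxia, and its change of -0.078 did not pass. One of its dimmer probe sets fell from 2519 ± 49.4 to 2162 ± 53.2 (-0.22), with a limma adjusted p of 0.0382 in the fit across probe sets.

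Both subunits were lower in hypoxia, with counts and medians close to each other. By symbol, 36 of 48 large subunit genes fell with a median change of -0.47, and 19 of 27 small subunit genes fell with a median change of -0.38. Counting MRPS30 and MRPS18A where their proteins sit gave 36 of 50 at -0.44 and 19 of 25 at -0.40. The mean log2 value of the large subunit genes minus that of the small subunit genes was 0.094, 0.087 and 0.074 on the normoxia arrays and 0.11, 0.095 and 0.11 on the hypoxia arrays. The differences of the normoxia arrays and those of the hypoxia arrays differed by far less than either subunit's own drop: the large went from 11.33 ± 0.019 to 10.86 ± 0.031 and the small went from 11.25 ± 0.028 to 10.76 ± 0.040. The medians put the larger fall in the large subunit, and these means put it in the small subunit. The difference between the subunits was not tested.

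The comparison was also made at like brightness, since brighter members changed less. Pearson's r between the change and the mean log2 value was 0.31 and Spearman's rho 0.34 over the 75 genes, which share arrays and are not independent; it was 0.23 and 0.27 over the 48 large subunit genes and 0.47 and 0.46 over the 27 small subunit genes. At a mean log2 value of 10 to 11, 13 of 15 large and 7 of 9 small subunit genes fell, with medians of -0.69 and -0.55, where 39.2% of all genes fell. At 11 to 12, 13 of 20 large and 8 of 13 small subunit genes fell, with medians of -0.34 and -0.22, where 35% of all genes fell. At 12 and over, 7 of 8 large and 1 of 2 small subunit genes fell, where 30.4% of all genes fell. At 9 to 10, 2 of 3 large and 3 of 3 small subunit genes fell, where 40.8% of all genes fell, and under 9 there were only the large subunit genes MRPL38, which fell, and MRPL2, in a class where 12.7% of all genes fell. For a closer match, each small subunit gene was set beside the large subunit gene nearest in brightness, within 0.25 in the mean log2 value, which gave 25 pairs and left MRPS26 and MRPS7 without a partner. The change of the large subunit gene was lower in 14 pairs and higher in 11. The median difference, large minus small, was -0.17 and the mean -0.0090. Single pairs ran from -0.84 (MRPL24 beside MRPS21) to 1.02 (MRPL44 beside MRPS11). In these pairs 18 large and 17 small subunit genes fell. With MRPS30 and MRPS18A moved to the large subunit the median difference was 0.0011, so the sign of the difference rests on how 2 genes are assigned. Averaging all probe sets of each gene put it at -0.018.

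**Figure D3:**
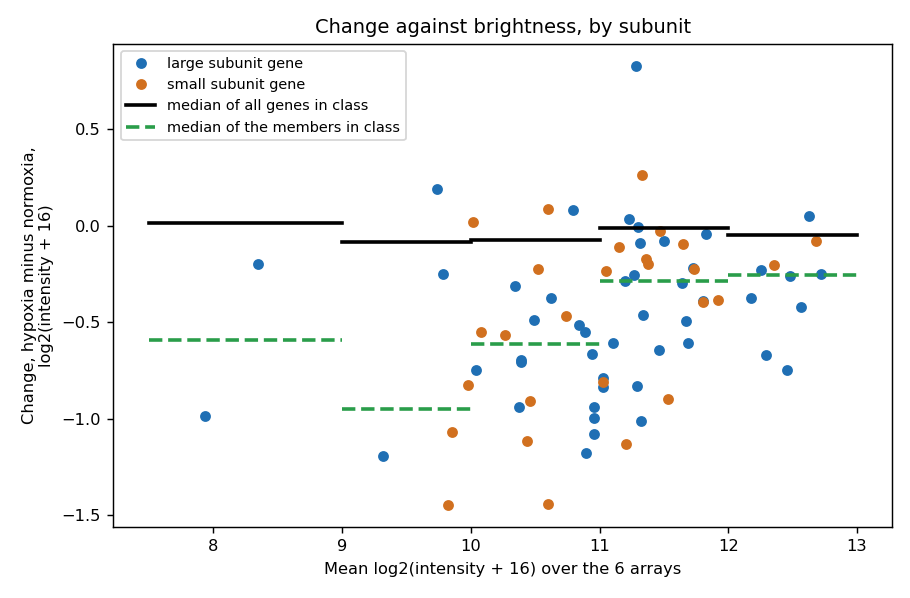
Change in log2(intensity + 16) against the mean log2 value over the 6 arrays for large (blue) and small (orange) subunit genes; black lines give the median of all genes tested in each brightness class and green dashed lines the median of the 75 genes, with the class under 9 drawn only in part. The green lines lie under the black lines in all 5 classes, and blue and orange points mix in the 4 classes from 9 upward, with 2 blue points alone under 9.

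Of the 75 genes, 38 were read by 1 probe set and 37 by several, with 65 other probe sets in all. In a fit over all 41091 single-symbol probe sets, in which 18% fell and 15.8% rose, 31 of the 65 fell, 4 rose and 30 did not pass. Of the 24 with a mean log2 value of at least 9, 13 fell, 1 rose and 10 did not pass. Among the 25 genes that fell and had several probe sets, 16 had another that fell and 3 had another that rose, MRPL19, MRPL39 and MRPS31; in the 8 that had neither, no other probe set passed. In this wider fit the brightest probe sets of MRPL33, MRPS18B and MRPS31 no longer passed, at limma adjusted p-values of 0.0504, 0.0621 and 0.0633. The direction was repeated by every probe set in MRPL4 (3 probe sets), MRPL50 (3), MRPL35 (3), MRPL42 (3), MRPS25 (3), MRPS12 (4) and MRPS22 (4). In MRPS11, MRPS16, MRPS23 and MRPL47, each with 2 probe sets, both fell. The names of all 4 probe sets of MRPS22 end in _x_at, so this gene was not measured where that kind was left out.

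In the 3 genes that fell and had a probe set going the other way, the rising one was dim. MRPL39 was at 1665, 1649 and 1798 in normoxia and at 951, 1099 and 1065 in hypoxia (-0.71), while its other probe set rose from 56.3 ± 8.05 to 126 ± 31.6 (0.96). Their mean was at 0.13 and did not pass (limma adjusted p = 0.492). MRPL19, by its brightest probe set, was at 2843, 2583 and 2609 in normoxia and at 2311, 2214 and 2184 in hypoxia (-0.26), with 1 other falling from 291 ± 11.9 to 209 ± 9.06 and 1 rising from 147 ± 18.1 to 229 ± 9.39. Its call was lost without normoxia replicate 0 or 2 or hypoxia replicate 1 or 2, at limma adjusted p-values of 0.0552 to 0.0807. MRPS31 was at 2912, 2768 and 2823 in normoxia and at 2413, 2574 and 2409.9 in hypoxia (-0.20), with 1 other probe set falling further, from 2562 ± 98.0 to 1499 ± 90.9 (-0.77), and 1 rising from 104 ± 5.40 to 144 ± 3.35 (0.41). The call of its brightest probe set was lost when any of the 6 arrays was left out, at limma adjusted p-values of 0.0511 to 0.125. Other probe sets also moved where the brightest did not. The 2 others of MRPS30 fell by 0.81 and 1.31 on the log2 scale, from 637 ± 34.9 to 356 ± 30.4 and from 487 ± 5.66 to 187 ± 10.5, and its mean over probe sets was at -0.74 (limma adjusted p = 0.000289). The other probe set of MRPS14 fell by 0.63, and the 4 others of MRPL30 split into 1 that rose (0.76), 1 that fell (-0.42) and 2 that did not pass.

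**Figure D4:**
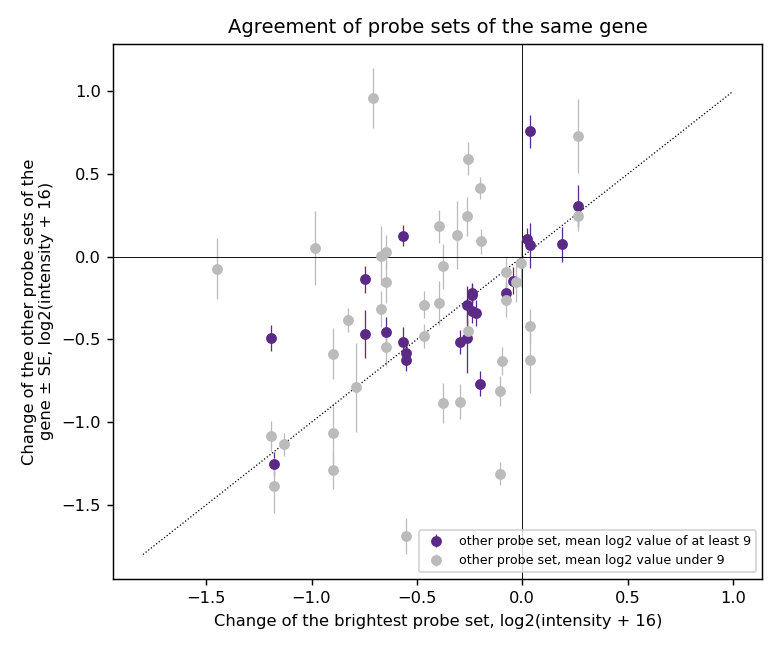
Change of each of the 65 other probe sets ± SE against the change of the brightest probe set of the same gene, in log2(intensity + 16); purple points have a mean log2 value of at least 9, grey points a lower one, and the dotted line marks equal change. Of the purple points 13 fell and 1 rose; of the 41 grey points 18 fell and 3 rose.

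Genes can start head to head with a neighbour on the other strand and share the stretch between. Of the 67 genes with a promoter entry, 25 (37.3%) had another gene starting on the opposite strand within 1000 bases of their own start, against 21.6% of 15384 genes tested. MRPL46 and MRPS11 are such a pair, with 320 bases between their starts, and both fell. MRPL46 was at 1790.3, 1899 and 1799 in normoxia and at 906, 986 and 943 in hypoxia (-0.94). MRPS11 was at 1210.4, 1369.5 and 1410.0 in normoxia and at 679, 802 and 747 in hypoxia (-0.83). Both had their groups fully apart, and most of the shared stretch is the MRPS11 sequence printed above.

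Of the neighbours outside the set, 17 had a probe set of their own. Of these 2 fell, 3 rose and 12 did not pass, with a median change of 0.054, where 20.6% of all genes fell and 16.9% rose, so their counts do not set them apart from genes in general; 13 of the 17 ribosomal genes beside them fell. MRPL50 starts 233 bases from ZNF189, a zinc finger gene, which rose from 1682 ± 18.5 to 2088 ± 46.4 (0.31, limma adjusted p = 0.00505). MRPS12 starts 181 bases from SARS2, the mitochondrial seryl-tRNA synthetase, which rose from 229.8 ± 7.63 to 273 ± 6.86 (0.23, limma adjusted p = 0.0206). In both pairs the ribosomal gene fell, by 1.18 and by 0.90 on the log2 scale. The third neighbour that rose, with the largest rise, was TMEM63B, 246 bases from MRPL14, from 123 ± 2.99 to 199.8 ± 22.5 (0.63, limma adjusted p = 0.00242), and MRPL14 itself was at -0.079 and did not pass. MRPS7 starts 273 bases from GGA3, an adaptor of vesicle traffic, which was at 318 ± 14.2 and 343 ± 19.3 (0.10) and did not pass. MRPL49 starts 49 bases from FAU, a cytosolic ribosomal protein gene, which was at 11467 ± 160.0 and 10867 ± 216 (-0.077) and did not pass. The 2 neighbours that fell were SKA3, a spindle and kinetochore gene beside MRPL57, from 2319 ± 78.5 to 683 ± 27.8 (-1.74), and PTCD2 beside MRPS27, from 912 ± 22.6 to 371 ± 54.7 (-1.27). The difference within these pairs was not tested.

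**Figure D5:**
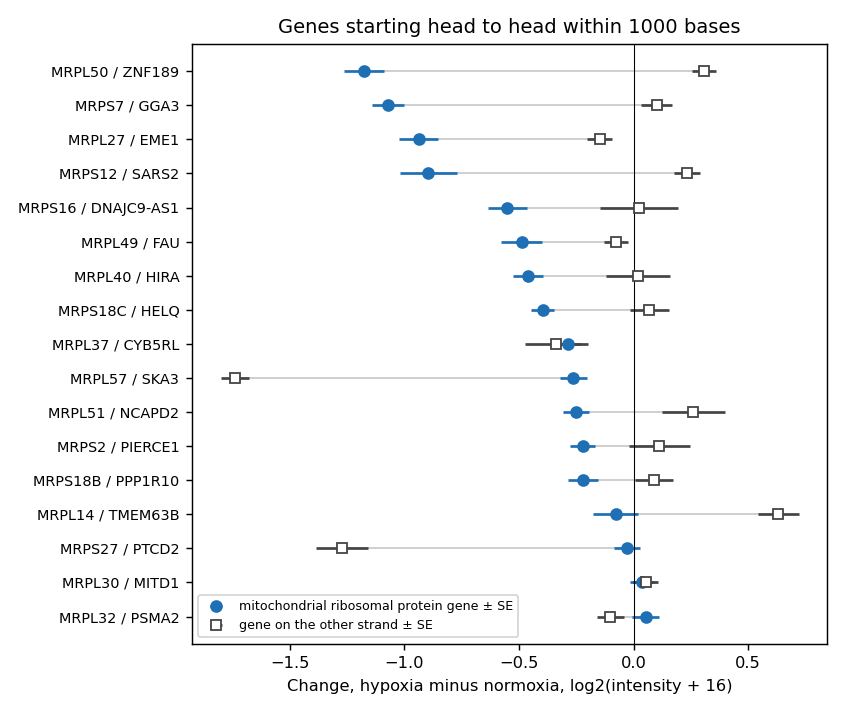
Change of 17 mitochondrial ribosomal protein genes (blue circles) and of the gene starting on the other strand within 1000 bases (open squares), each ± SE, in log2(intensity + 16); each row is 1 pair. The circle lies left of the square in 13 rows; in the other 4 the partner is SKA3, PTCD2, CYB5RL or PSMA2.

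Proteins of the mitochondrial ribosome that carry other names were measured for 4 genes. Of these, CHCHD1 fell from 3582 ± 119 to 2438 ± 149 (-0.55, limma adjusted p = 0.00142). DAP3, PTCD3 and GADD45GIP1 were at -0.13, -0.17 and -0.22 and did not pass, although all normoxia arrays lay above the hypoxia arrays in each. That separation was shown by 25.8% of all genes, and 20.6% of all genes fell. At a mean log2 value of 11 to 12, where the median of this list lies, 35% fell. Of 29 factors that assemble the ribosome or modify its RNA, 17 fell (58.6%), 6 rose (20.7%) and 6 did not pass, with a median change of -0.37. Over all genes 20.6% fell and 16.9% rose, and at a mean log2 value of 9 to 10, where the median of this list lies, 40.8% fell. MTERF3 fell from 1191 ± 23.7 to 575 ± 14.3 (-1.03), NGRN from 2865 ± 98.1 to 1280.1 ± 56.2 (-1.15), the ribosomal RNA methyltransferase gene MRM1 from 184 ± 2.47 to 59.1 ± 6.78 (-1.42) and the helicase gene DDX28 from 675 ± 35.7 to 211 ± 25.5 (-1.61). The 6 that rose were NOA1, MTG2, NSUN4, RPUSD4, YBEY and GRSF1, at 0.52, 0.67, 0.19, 0.25, 0.36 and 0.39.

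Of 14 translation factors and membrane partners of the ribosome, 6 fell, 2 rose and 6 did not pass, with a median change of -0.13. Over all genes 20.6% fell, but of those at a mean log2 value of 10 to 11, where the median of this list lies, 39.2% fell, close to its 42.9%. The elongation factor genes TSFM and GFM1 fell from 1965 ± 41.5 to 775 ± 43.3 (-1.33) and from 3911 ± 113 to 1851 ± 49.3 (-1.07), while TUFM, the elongation factor that brings the tRNA, was at 3564 ± 91.9 and 3517 ± 139.6 (-0.020) and did not pass. MTFMT, which formylates the initiator tRNA, and the release factor gene MTRF1L fell by 0.66 and 0.58 on the log2 scale. The initiation factor gene MTIF3 rose by 0.40, and OXA1L, the insertase of the inner membrane, by 0.35. Of 10 genes of mitochondrial transcription and genome maintenance, 8 fell, POLG2 rose (0.25) and POLG did not pass, with a median change of -0.85; its median brightness lies in the same class of 9 to 10, where 40.8% of all genes fell. TWNK, the mitochondrial helicase, fell from 491 ± 29.6 to 95.9 ± 26.6 (-2.21), TFAM, which packs mitochondrial DNA, from 3177 ± 66.6 to 1255 ± 47.5 (-1.33), MTERF1 from 623 ± 52.7 to 243 ± 8.68 (-1.30) and TFB2M, a factor of transcription initiation, from 2669.8 ± 174 to 1238 ± 73.0 (-1.10). Of 53 cytosolic ribosomal protein genes 1 passed, where 37.4% of all genes did: RPL36A, which rose from 93.7 ± 7.37 to 148 ± 19.2, and the median change of the list was -0.044. At a mean log2 value of 12 and over, where the median of this list lies, 30.4% of all genes fell. The median normoxia intensity of the list was 12876, far above RPL36A, and the highest of all genes tested was 16010. Whether changes are compressed so near the top of the range was not tested.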

How the data were processed

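The values deposited by the authors are linear intensities of 54613 probe sets on 6 arrays; the steps that corrected, summarised and scaled them are not given in the sources used. The number of arrays limits the precision, and no detection calls were used. Names came from the annotation of the array platform, in which 41091 probe sets carried 1 symbol, brought up to date through RefSeq Entrez identifiers for 41037, and no member entered or left by that. Each of 19775 genes was read by its brightest probe set (mean log2 over all arrays). Hypoxia was compared with normoxia on log2(intensity + 16) by limma 3.58.1 (lmFit, eBayes; R 4.3.3) in a two-sided test, adjusted over all genes by Benjamini-Hochberg. The fit was tested on simulated data, where it recovered 4 of 50 changes of 0.3 on the log2 scale and 26 of 50 of 0.5. Of changes of 1 and 2 it recovered 45 and 48 of 50. It made 129 calls there, 6 of them false, against 7403 in these data, so these shares do not carry over directly. A small change that did not pass is not shown to be absent. The replicate numbers 0 to 2 of the titles were not taken as pairs, since the labels do not say that they mark a shared culture or day. Deviations of equal numbers correlated at 0.21, 0.0082 and 0.19, and those of unequal numbers at -0.23 to 0.093. The values of 0.21 and 0.19 thus lie above every unequal one. Whether equal numbers share an effect was not tested. No pair of arrays shared over 1.23% identical values. The 75 genes follow a rule on symbols. Members and lists were chosen with earlier results of these data known. By rule, array values are given for the 6 largest falls, each rise, the 3 smallest changes, genes with opposing probe sets, the brightest of each subunit and the MRPS18 paralogues; other genes shown by array or singled out by role were chosen after their values were seen, and so was the comparison of head-to-head neighbours. From other lists the 4 genes with the smallest adjusted p are named, and any further ones were named after their values were seen. Alternatives were the pseudocount (1 and 64), quantile normalization, median centring, a filter on dim genes, the mean of probe sets, no _x_at probe sets, annotation symbols, an intensity trend, the replicate block and leaving out each array.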

Additional observations from a re-analysis of the deposited data

How the results depend on the processing

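The count of genes that fell was 55 and lay between 44 and 58 over the 16 alternative settings, with 2 or 3 rises, and 41 of the 55 fell under every one of them. Without _x_at probe sets 53 fell of the 73 genes still measured, as MRPL51 and MRPS22 have no other kind. Leaving out 1 array at a time gave 44 to 54 falls. With the replicate number as a block 53 fell and 2 rose; MRPL33, MRPS18B and MRPS31 lost their call and MRPL55 gained one. The numbers were not taken as pairs. Median centring, which moves all genes by -0.066, put the median change at -0.49, that of the large subunit at -0.54 and that of the small subunit at -0.45. Without 1 array the small subunit's median was -0.39 to -0.34. The difference of the subunits at matched brightness was -0.17; it was -0.018 with the mean of probe sets, -0.035 without _x_at probe sets and 0.0011 with MRPS30 and MRPS18A in the large subunit. MRPL39 turned to 0.13 with the mean of its probe sets. Where a gene changed its call and no value above bears on it, the cause was not tested. No detection calls were used, so how far the dim probe sets lie above background is not known.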
